A study of Mus musculus with 16 samples.

Results

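Glucose breakdown and the response to low oxygen were examined through 38 mouse genes, a list of hexose and lactate transporters, the enzymes of glycolysis with their isozymes, the lactate and pyruvate branch, and genes known to be induced by hypoxia. All 38 were found by symbol among the 35976 genes of the count table, and 37 were among the 13891 genes expressed highly enough to be tested. The remaining member, Adm, a secreted peptide gene, had 4 counts over all libraries, and no difference in it could be detected at this depth. RNA came from neural tube organoids on day 4, which were grown from the mouse embryonic stem cell line R1 carrying a FOXA2-Venus reporter. All groups had the same line and reporter and 18 hours of RA (retinoic acid). The cells were divided by their FOXA2 expression into a negative, a low, a medium and a high gate, with 4 libraries each. FOXA2, a transcription factor, marks floor plate cells at the ventral midline of the neural tube. Every gate came from 1 parent line, how the cells were separated is not given in the sources used here, and nothing states that the numbered libraries of a gate were separate cultures. A p-value therefore measures the spread of these libraries alone, which may be technical.

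Glycolysis turns glucose into pyruvate in the cytosol and yields ATP without oxygen. Pyruvate is then either reduced to lactate and exported or passed to the mitochondrion. When oxygen is low, the prolyl hydroxylases of the EGLN family no longer mark HIF-alpha proteins for destruction, and the HIF factors bind a short DNA core and raise transcription of many glycolytic genes, transporters and genes such as Pdk1, Bnip3 and Vegfa. Pluripotent cells and early embryonic progenitors are known for high glycolysis that falls as they differentiate.

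The members that moved against the negative gate were mostly lower, and the strongest decreases were in Ndrg1, Pfkp and the lactate exporter Slc16a3, which were lower in each of the other 3 gates. Slc16a1, a lactate and pyruvate carrier, and Bnip3l, a mitophagy receptor, went the other way and rose in the medium and high gates. Most enzymes of the pathway itself passed no test. Of the 37 tested members, 15 passed in at least 1 of the 6 comparisons between gates, a share that was not counted over all genes. The other 22 passed neither there nor in the test for any difference among the 4 gates. That overall test called 10 of 37 members, or 27.0%, against 13.7% of all genes tested. All tests of genes are edgeR quasi-likelihood tests with Benjamini-Hochberg adjustment over all genes tested, and "called" means an adjusted p under 0.05.

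In low versus negative, no member was called higher (1.47% of all genes were) and 5 were called lower (2.29% of all genes). The 5 were Pfkp, Aldoa, Slc16a3, Pdk1 and Ndrg1. Bnip3l was the 1 member higher at an unadjusted p under 0.05, and DESeq2 also called 0 members higher. The number called lower was 3 without low 1, 8 without low 2, 3 without low 3 and 2 without low 4. The share of all genes called in such reduced fits is not given here. In medium versus negative, 2 members were called higher (4.24% of all genes) and 8 lower (4.22% of all genes). The number lower was 5 without negative 2 and 4 without medium 4, and the number higher was 1 without any of negative 2, negative 3, negative 4, medium 2 and medium 4. In high versus negative, 3 members were called higher (8.42% of all genes) and 6 lower (8.55% of all genes), so the count of higher members lay near the background share. The 3 comparisons share the negative libraries. The median log2 fold change of the members was -0.09, -0.10 and -0.12 in the low, medium and high gates, beside 0.02, 0.00 and 0.00 over all genes tested.

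**Figure D1:**
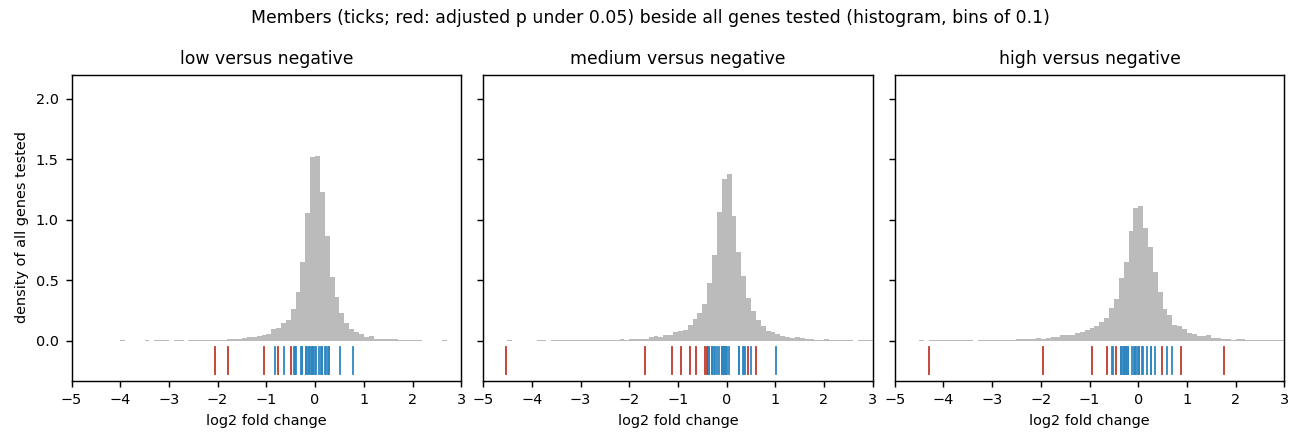
Distribution of the log2 fold change (horizontal axis) of all 13891 genes tested as a density (vertical axis), with the 37 tested members as ticks below it, in the low, medium and high gate against the negative gate; red ticks passed an adjusted p under 0.05. Most ticks lie under the peak of the distribution, and the few far to the left are Ndrg1, Pfkp and Slc16a3.

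Between the other gates fewer members passed. In high versus low, Hk2, Slc16a1 and Pdk1 were called higher, which is 3 members beside 3.79% of all genes, and P4ha1 was called lower, which is 1 member beside 3.08% of all genes. The number called higher was 1 without low 3, low 4, high 1 or high 3. Medium versus low called 0 members with edgeR, beside 0.49% of all genes higher and 0.223% lower, and high versus medium also called 0, beside 0.367% and 0.547%. At an unadjusted p under 0.05 edgeR had 3 members in the first of these and 4 in the second, and DESeq2 called 0 in both. Without medium 2, 1 member was called higher in medium versus low. The gate accounted for a median of 41.3% of the log2 variance of the members over the 16 libraries, beside a median of 26.3% over all genes tested. That share was lowest for Egln3 (6.83%) and highest for Pdk1 (82.1%).

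**Figure D2:**
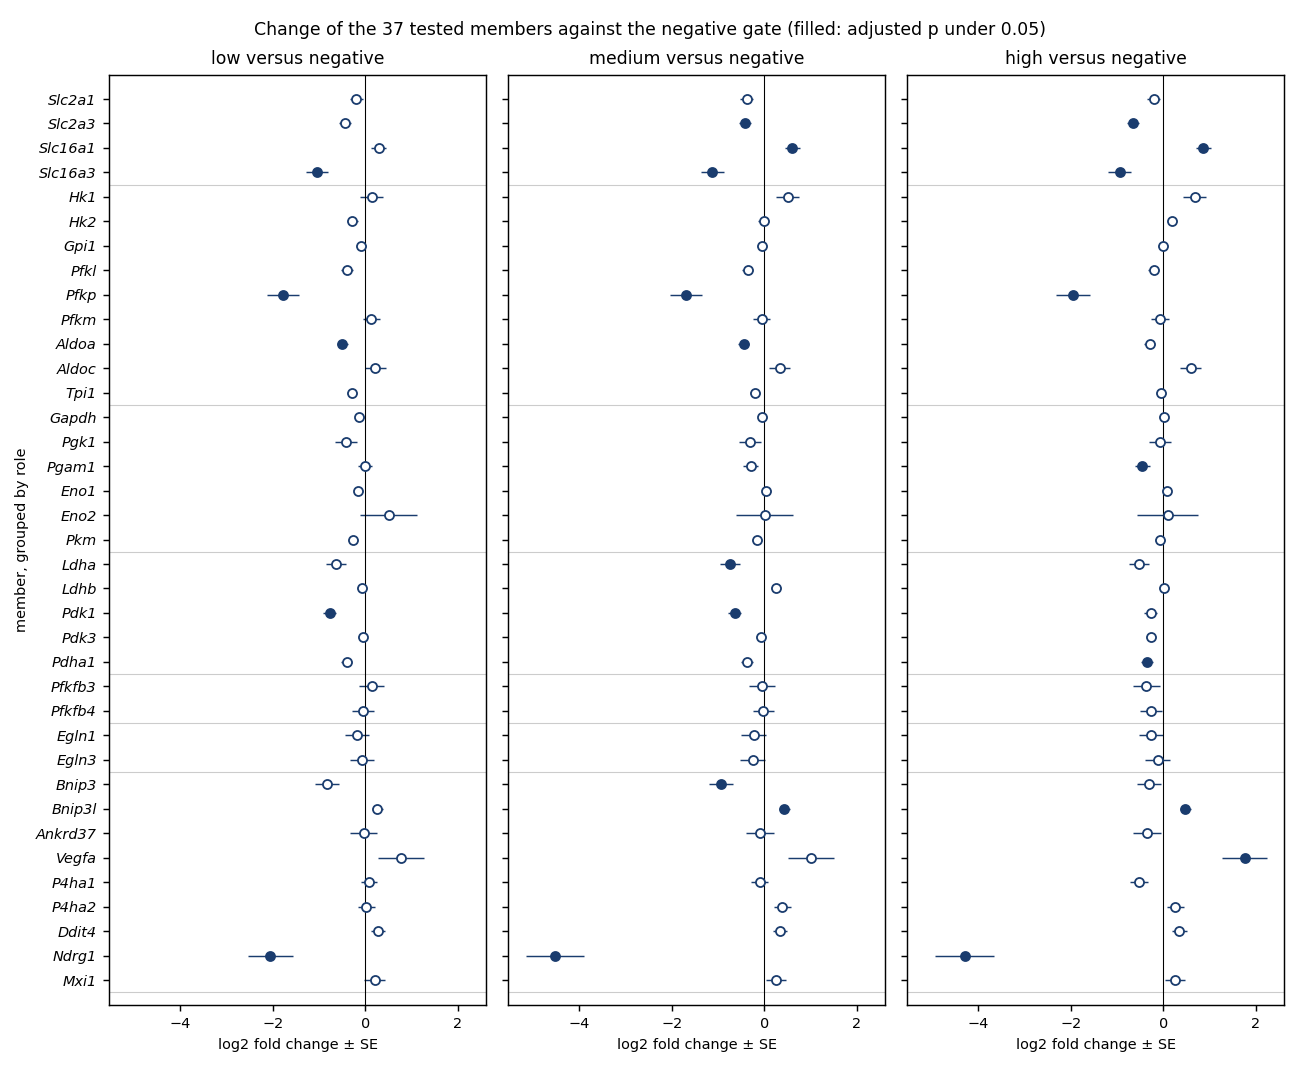
Log2 fold change with its standard error (horizontal axis) of the 37 tested members (vertical axis, grouped by role and divided by grey lines) in the low, medium and high gate against the negative gate, with filled points for an adjusted p under 0.05. Ndrg1 (-4.53 in the medium gate) and Pfkp (-1.69) lie far to the left, while Slc16a1 and Bnip3l lie to the right in the medium and high gates.

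Sequencing depth lay between 3268948 and 9961032 counts in a library. Levels are given in CPM, counts relative to the scaled library size, and 1 count corresponds to 0.102 to 0.304 CPM. Foxa2 itself, which checks the labels, stood at 2.91 ± 1.68, 11.9 ± 3.02, 52.0 ± 9.36 and 113 ± 18.2 CPM from the negative to the high gate (SD, n = 4). High 2 stood apart from the rest on the second principal component, low 1 and medium 2 on the third, and high 4 and, to the other side, high 2 on the fourth. Summed floor plate markers ran from 37.5 to 42.2 CPM in negative and from 189 to 252 in high libraries. This list includes Foxa2, the gene of the gates, which held 113 of a mean of 217 CPM in the high gate. Summed endoderm markers ran from 48.4 to 53.1 CPM in negative and from 295 to 308 in high libraries. Those of mesoderm and notochord ran from 127 to 157 CPM in negative and from 315 to 374 in high libraries. A rise was therefore not particular to the floor plate list. Of 10 listed endoderm genes 5 were tested, and 3 were called higher and 0 lower in high versus negative. For mesoderm and notochord 5 of 10 were tested, with 4 higher and 0 lower. The shares over all genes were 8.42% and 8.55%. In high versus low the mesoderm and notochord list had 2 higher and 2 lower, beside 3.79% and 3.08% of all genes. Noto was at 0 in every library, and Hnf4a in all 4 high ones. A risen sum does not show a rise of every marker. Summed neural progenitor markers ran from 369 to 428 CPM in negative and from 96.1 to 133 in high libraries, and of these markers Sox1 and Sox2 were listed at 0 in every library. Such a 0 may come from how reads were assigned to genes, which is not given here and was not tested. It does not show that the cells lacked Sox1 or Sox2 RNA. Markers of pluripotent or epiblast cells summed to 626 to 1077 CPM in negative, 102 to 191 in low, 63.7 to 90.2 in medium and 58.7 to 90.8 in high libraries. Of the 11 tested genes of that list, 9 were called lower in each gate against the negative gate. Over all genes tested, 2.29%, 4.22% and 8.55% were called lower in low, medium and high. The list's defining gene Pou5f1 stood at 2.49 ± 0.671 CPM in the negative gate and at 0 in all 4 high libraries. It was not among the 9 genes of the list that DESeq2 called lower in high versus negative. Counting error alone leaves room for 3 counts at such a 0, which is 0.913 CPM in high 4. How its reads were assigned was not tested either. The called markers of this list moved in the same direction between the negative and the other gates as the members called lower, and their part in those results was not tested. In such bulk libraries, fewer cells of a type and less RNA per cell cannot be told apart.

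The DNA just upstream of the members is shown because the data hold genes that moved in opposite directions and are described as responding to the same factors. The core bound by HIF was searched as ACGTG and GCGTG on both strands, where the reverse strand reads CACGT and CACGC and where CACGTG counts on both, in the 250 bases before each RefSeq start (GRCm38.p6). An entry was found for 35 of the 38 members, all but Slc2a3, Bnip3l and Ndrg1. In at least 1 window of the gene, the core was present for 32 of those 35 members, or 91.4%, beside 11226 of 27025 genes, or 41.5%. Counted by window, it was present in 41 of 51 (80.4%) beside 12679 of 32851 (38.6%). Members were listed as glycolytic or hypoxia-induced genes, so their share may follow from that choice and is no test of it. The members' windows were also richer in CpG, with a median of 14 CpG per window beside 6 over all windows. All 8 members called lower against the negative gate that had an entry held the core, as did both of those called higher, and so did 22 of the other 25. The 5 windows below are those of members whose calls held under every alternative in at least 1 comparison, lower against negative for the first 3, higher against negative for Slc16a1 and higher against low for Hk2. Each is written 5′ to 3′ on the strand of the gene and ends 1 base before the start, and capitals mark the core. They lie at chr11:120948817-120949066 on the plus strand (Slc16a3), chr13:6648772-6649021 on the minus strand (Pfkp), chr2:71872974-71873223 on the plus strand (Pdk1), chr3:104638414-104638663 on the plus strand (Slc16a1) and chr6:82774455-82774704 on the minus strand (Hk2).
Slc16a3: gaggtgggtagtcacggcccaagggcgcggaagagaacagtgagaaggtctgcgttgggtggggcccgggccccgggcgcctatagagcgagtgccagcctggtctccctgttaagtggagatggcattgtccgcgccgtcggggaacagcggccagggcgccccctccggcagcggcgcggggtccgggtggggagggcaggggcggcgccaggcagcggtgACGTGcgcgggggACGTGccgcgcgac
Pfkp: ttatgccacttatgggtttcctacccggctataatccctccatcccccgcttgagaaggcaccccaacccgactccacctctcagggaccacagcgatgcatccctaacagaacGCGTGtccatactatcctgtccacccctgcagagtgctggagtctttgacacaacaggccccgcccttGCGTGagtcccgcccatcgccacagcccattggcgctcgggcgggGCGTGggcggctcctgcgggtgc
Pdk1: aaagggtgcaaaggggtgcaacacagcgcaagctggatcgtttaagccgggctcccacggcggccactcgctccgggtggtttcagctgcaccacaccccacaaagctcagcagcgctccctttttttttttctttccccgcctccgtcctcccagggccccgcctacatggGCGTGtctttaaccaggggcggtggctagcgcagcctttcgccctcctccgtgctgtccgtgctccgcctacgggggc
Slc16a1: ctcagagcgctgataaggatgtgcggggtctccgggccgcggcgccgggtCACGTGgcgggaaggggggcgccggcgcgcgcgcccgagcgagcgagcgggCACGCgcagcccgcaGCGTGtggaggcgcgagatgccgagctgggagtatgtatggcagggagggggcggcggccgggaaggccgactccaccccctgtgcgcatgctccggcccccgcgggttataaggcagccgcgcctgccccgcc
Hk2: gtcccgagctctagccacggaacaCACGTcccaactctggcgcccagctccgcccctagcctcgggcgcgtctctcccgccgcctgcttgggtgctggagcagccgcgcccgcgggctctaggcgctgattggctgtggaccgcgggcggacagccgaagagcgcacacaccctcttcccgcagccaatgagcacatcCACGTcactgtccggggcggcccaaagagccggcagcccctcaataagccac
Pdk1 has a second RefSeq start, whose window at chr2:71874654-71874903 on the plus strand held 0 cores and is not shown. The 5 windows shown hold the core for lower and higher genes alike. A match of letters is a description of the sequence and not a bound site.

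Transporters, a role of only 4 genes, had the largest share of called members, with 1 higher and 2 lower in both medium and high versus negative. Over all genes tested, 4.24% were called higher and 4.22% lower in medium, and 8.42% and 8.55% in high. The calls in high held under every alternative run. In medium, leaving out 1 library ended the call of Slc2a3 in 11 of 16 fits and that of Slc16a1 in 3. The rank of this role in medium is therefore uncertain. Slc16a3 encodes MCT4, the lactate exporter of glycolytic cells. Its level in negative libraries 1 to 4 was 157, 302, 172 and 172 CPM. In the low gate it was 66.9, 140.1, 109 and 75.0 CPM. The medium libraries gave 90.5, 90.2, 103 and 85.5 CPM and the high libraries 90.8, 139, 97.4 and 90.4 CPM. All 12 libraries of these 3 gates lay below all 4 negative libraries. Slc16a3 log2 fold changes were -1.04 for low (SE 0.245, adjusted p = 0.0278), -1.12 for medium (SE 0.247, adjusted p = 0.00943) and -0.94 for high (SE 0.247, adjusted p = 0.0159). The call in the low gate was lost without low 1 (adjusted p = 0.0642), low 3 (0.0502) or low 4 (0.0893), with low 1 and medium 2 both left out (0.129) and with only the 2 gates compared (0.157), while the other 2 calls held under every alternative run. The highest library in each of the negative, low and high gates was number 2.

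Slc16a1 encodes MCT1, which carries lactate and pyruvate in either direction, and it moved opposite to Slc16a3. It stood at 20.6, 26.4, 16.2 and 23.3 CPM in the negative libraries and at 30.6, 25.3, 25.4 and 24.8 in the low ones. The medium libraries gave 29.3, 40.1, 25.9 and 36.7 CPM and the high ones 44.6, 38.7, 39.6 and 35.0 CPM. The high gate lay above all negative and all low libraries, while the medium gate overlapped the negative one. For Slc16a1 the log2 fold change was 0.61 for medium (SE 0.161, adjusted p = 0.0137) and 0.87 for high (SE 0.162, adjusted p = 0.000224). High versus low gave 0.58 (SE 0.159, adjusted p = 0.0226). The call of medium was lost without negative 3 (adjusted p = 0.0664), medium 2 (0.0519) or medium 4 (0.0522). That of high versus low was lost without low 2 (0.0577), low 3 (0.0676), low 4 (0.0746), high 1 (0.0959) or high 3 (0.0548), and with every library thinned to the smallest total (0.0819).

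Of the glucose transporters, Slc2a3 fell and Slc2a1 was not called. Slc2a3 encodes GLUT3, a high-affinity transporter of neural and early embryonic cells. The negative libraries held 290.1, 348, 277 and 276 CPM of it, and the low ones 179.8, 279.8, 228 and 198. The medium libraries held 218, 251, 227 and 201 CPM and the high ones 168, 243, 183 and 166. Neither the medium nor the high gate overlapped the negative gate. Its log2 fold change of the high gate was -0.65 (SE 0.131, adjusted p = 0.000662), which held under every alternative run. That of the medium gate was -0.41 (SE 0.130, adjusted p = 0.0477), and leaving out 1 library ended this call in 11 of 16 cases, with the adjusted p up to 0.182 without negative 2, as did thinning every library to the smallest total (0.0532). The medium call was kept without low 1, low 2, medium 2, high 2 or high 4. The low gate was called without the low-count filter (adjusted p = 0.013) and with the replicate number as a block (0.00428), but not by edgeR as fitted. Slc2a1, which encodes the widespread GLUT1, had 82.6 ± 21.8 CPM in the negative gate and 63.6 ± 4.50 in the medium gate (SD, n = 4), with no call (log2 fold change -0.38, adjusted p = 0.107).

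**Figure D3:**
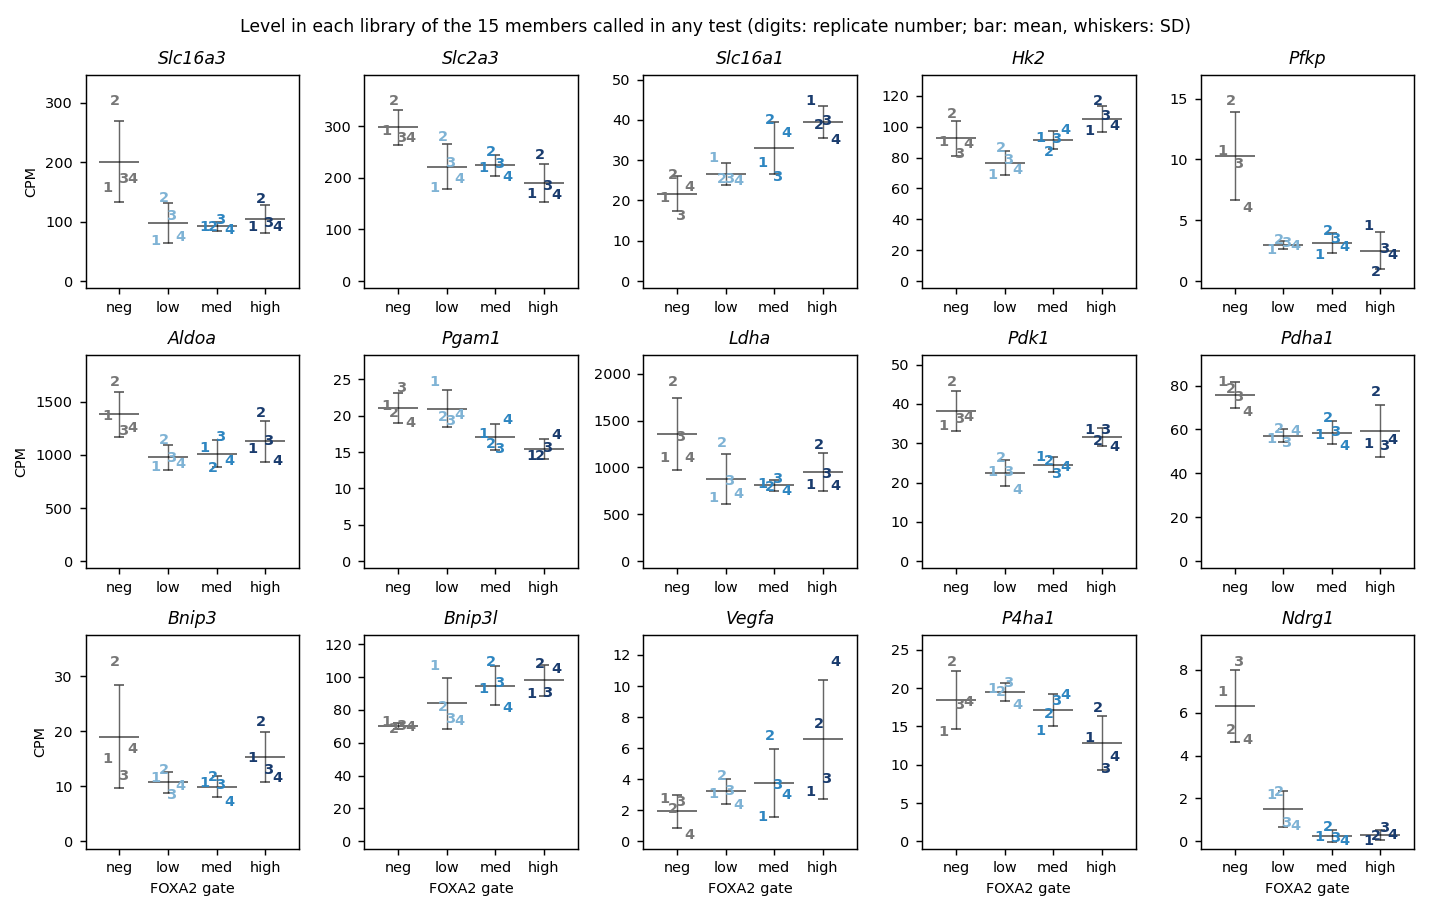
Level in CPM (vertical axes, linear, each gene on its own scale) of the 15 members called in any comparison in each library, by FOXA2 gate (horizontal axes); digits are replicate numbers, bars means and whiskers SD of 4 libraries. The negative libraries of Slc16a3, Pfkp and Ndrg1 lie above all others, and the high libraries of Slc16a1 lie above the negative and low ones.

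In the upper part of glycolysis, from glucose to the triose phosphates, Pfkp and Aldoa were lower and Hk2 differed between the high and low gates. The other 6 of the 9 members passed no test. Pfkp is the platelet-type isozyme of phosphofructokinase, which commits sugar to glycolysis. Its negative libraries gave 10.7, 14.8, 9.65 and 6.04 CPM. The low libraries gave 2.53, 3.36, 3.11 and 2.90 CPM, and the medium ones 2.16, 4.12, 3.46 and 2.83. In the high gate the values were 4.49, 0.759, 2.62 and 2.13 CPM, from only 27, 3, 17 and 7 counts. The lowest negative library was above the highest library of each other gate. Against negative, Pfkp log2 fold changes were -1.78 for low (SE 0.342, adjusted p = 0.00125), -1.69 for medium (SE 0.344, adjusted p = 0.00125) and -1.95 for high (SE 0.359, adjusted p = 0.000196). These 3 calls held under every alternative run. The liver-type isozyme Pfkl stood at 226 ± 39.9, 172 ± 28.9, 176 ± 3.23 and 196 ± 23.4 CPM from the negative to the high gate, and the muscle-type Pfkm at 15.1 ± 1.83, 16.4 ± 2.12, 14.5 ± 4.08 and 14.4 ± 1.11, with no call for either.

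Aldoa, the ubiquitous aldolase that splits fructose bisphosphate, held 1363, 1688, 1224 and 1249 CPM in the negative libraries and 882, 1143, 968 and 915 in the low ones. The medium libraries held 1064, 873, 1166 and 945 CPM and the high ones 1051, 1391, 1131 and 937. The low and medium gates lay wholly below the negative gate, and the high gate overlapped it. Aldoa log2 fold changes were -0.50 for low (SE 0.122, adjusted p = 0.0153), -0.45 for medium (SE 0.122, adjusted p = 0.0175) and -0.29 for high (adjusted p = 0.103). The low call was lost without negative 2 (adjusted p = 0.0956), low 1 (0.0582) or low 4 (0.0605), and with low 1 and medium 2 both left out (0.0802). The medium call was lost without negative 2 (0.0997), medium 2 (0.0848) or medium 4 (0.0527), or with low 1 and medium 2 both left out (0.0942). The high gate gained a call without high 2 (0.0234) and with no filter on low counts (0.0463).

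Hk2, the inducible hexokinase that phosphorylates glucose on entry, had its lowest values in the low gate. Its libraries gave 90.1, 109, 82.3 and 89.1 CPM in negative and 68.8, 86.2, 78.5 and 71.8 in low libraries. They gave 92.7, 83.6, 92.0 and 97.9 CPM in medium and 96.9, 116, 107 and 101 in high libraries. All high libraries were above all low ones, and the log2 change was 0.46 (SE 0.113, adjusted p = 0.00849), which held under every alternative run. Neither gate was called against the negative gate (adjusted p = 0.211 for low and 0.288 for high). Hk1, the hexokinase of most adult tissues, stood at 9.18 ± 2.47 CPM in negative and 14.9 ± 4.60 in high libraries without passing the test (log2 fold change 0.68, adjusted p = 0.0566). Gpi1, Tpi1 and Aldoc were not called in any comparison, and Aldoc stood at 9.39 ± 1.53 CPM in the negative and 14.3 ± 3.32 in the high gate (adjusted p = 0.0705).

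In the lower part of glycolysis, from glyceraldehyde phosphate to pyruvate, 1 of 6 members passed a test. Pgam1, the phosphoglycerate mutase, gave 21.4, 20.3, 23.8 and 18.9 CPM in negative and 24.7, 19.8, 19.3 and 20.2 in low libraries. It gave 17.5, 16.2, 15.4 and 19.4 CPM in medium and 14.5, 14.4, 15.6 and 17.3 in high libraries. The high libraries lay below all negative ones, and the log2 change was -0.45 (SE 0.160, adjusted p = 0.0498). This call was lost in 12 of the 16 fits that left out 1 library, with an adjusted p up to 0.138 (without negative 3), and was kept without low 1, medium 2, medium 3 or high 4. It was also lost with every library thinned to the smallest total (log2 change -0.35, adjusted p = 0.206), with no filter on low counts (0.135), with only the 2 gates compared (0.0588) and with the replicate number as a block (0.0536). Gapdh, Pgk1, Eno1, Eno2 and Pkm passed no test. Gapdh ranged over 0.390 on the log2 scale across all 16 libraries, the narrowest range of the tested members, with gate means of 1415, 1295, 1369.9 and 1430.4 CPM. Pkm, the last enzyme of the pathway, had gate means of 3219, 2675, 2889 and 3078 CPM with SD from 219 to 468. Gapdh, Eno1 and Ldhb have near-identical copies at the 3′ end elsewhere in the genome, 63 for Gapdh of which 61 are pseudogenes, so reads could be split and their values are uncertain. No such copy was found for Pgk1 or Pgam1. Both stood far below Gapdh and Pkm, with gate means of 7.67 to 10.3 CPM for Pgk1 and 15.5 to 21.1 CPM for Pgam1. Whether reads of these genes were lost in counting was not tested.

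At the branch from pyruvate, Pdk1 gave the clearest pattern, and the negative gate was highest in mean level for 4 of 5 members. Pdk1 is a kinase that switches off pyruvate dehydrogenase and so keeps pyruvate from the mitochondrion. The negative libraries held 34.3, 45.7, 36.2 and 36.8 CPM and the low ones 22.7, 26.3, 22.7 and 18.0. The medium libraries held 26.6, 25.6, 22.1 and 23.9 CPM and the high ones 33.4, 30.6, 33.3 and 28.9. The high gate lay between the negative gate and the low and medium gates with no overlap on either side. Pdk1 changed on the log2 scale against the negative gate by -0.77 for low (SE 0.143, adjusted p = 0.000839) and -0.64 for medium (SE 0.143, adjusted p = 0.00322), and both calls held under every alternative run. In the high gate it was -0.27 (SE 0.143, adjusted p = 0.212). High versus low gave 0.50 (SE 0.146, adjusted p = 0.0326), a call lost without low 1 (0.0592), low 3 (0.0677), low 4 (0.151), high 1 (0.0954), high 2 (0.0556) or high 3 (0.0938), with thinning (0.0892) and with no low-count filter (0.0684). The related kinase Pdk3 was not called, at 103 ± 3.96 CPM in the negative and 85.8 ± 3.66 in the high gate (adjusted p = 0.0919).

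Ldha, the lactate dehydrogenase subunit of glycolytic tissues, varied widely among the negative libraries. They gave 1103, 1915, 1326 and 1099 CPM, and the low libraries gave 676, 1259, 852 and 717. The medium libraries gave 819, 793, 879.6 and 745 CPM and the high libraries 816, 1240.1, 935 and 805. The medium gate lay below all negative libraries, while in the low and high gates only library 2 reached into the negative range. Ldha log2 fold changes were -0.63 for low (adjusted p = 0.151), -0.75 for medium (SE 0.216, adjusted p = 0.0453) and -0.52 for high (adjusted p = 0.122). The medium call was lost in 8 of the 16 fits without 1 library, with adjusted p from 0.0582 (without low 3) to 0.126 (without medium 2) among negative 2, negative 3, low 3, each medium library and high 3. It was also lost with no filter on low counts (0.058), with thinning (0.0523) and with low 1 and medium 2 both left out (0.117). Without low 2 the low gate gained a call (adjusted p = 0.00843), as did the high gate without low 2 (0.0329) or high 2 (0.0421). With the replicate number as a block, edgeR called Ldha lower in the low (adjusted p = 0.000412) and high gates (0.00157) too, although the numbers were not shown to pair the libraries. Ldhb, the subunit of oxidative tissues, had 182 ± 14.1 CPM in the negative gate and 216 ± 33.4 in the medium gate, with no call (adjusted p = 0.182).

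Pdha1 encodes the catalytic subunit of pyruvate dehydrogenase that the PDK kinases phosphorylate. It gave 81.8, 78.5, 75.0 and 68.1 CPM in the negative libraries and 55.5, 60.2, 54.1 and 59.2 in the low ones. It gave 57.7, 65.3, 58.8 and 52.5 CPM in the medium libraries and 53.2, 76.9, 52.4 and 55.1 in the high ones. The low and medium gates did not overlap the negative gate and were not called by edgeR (adjusted p = 0.0654 and 0.0605), while DESeq2 called both (0.0312 and 0.0357), as did edgeR with the replicate number as a block (0.0375 and 0.0345), without medium 2 (0.0442 and 0.0378) or without high 2 (0.0368 and 0.0364). The high gate overlapped it through high 2 and was called, at a log2 change of -0.36 (SE 0.126, adjusted p = 0.0489). That call was lost in 11 of the 16 fits without 1 library, with an adjusted p up to 0.159 (without high 3), and was kept without negative 4, low 1, medium 2, medium 4 or high 2. It was also lost with thinning (0.0815) and with no low-count filter (0.0792). The 3 gate differences are close in size, and no difference among these 3 gates was called.

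Of the 4 members that regulate the pathway or sense oxygen, edgeR called 0 in any comparison, also with 0 at an unadjusted p under 0.05 and 0 with DESeq2. Pfkfb3 and Pfkfb4 make or remove fructose 2,6-bisphosphate, the activator of phosphofructokinase. Pfkfb3 ranged over the libraries from 5.38 to 8.40 CPM in negative, 4.42 to 10.6 in low, 5.51 to 7.92 in medium and 2.78 to 8.52 in high. Pfkfb4 stood at 10.9 ± 2.40, 10.5 ± 1.96, 10.7 ± 2.24 and 9.20 ± 2.87 CPM from negative to high. For both genes the libraries of all 4 gates overlapped. Egln1 and Egln3 are the prolyl hydroxylases, and Egln3 is itself induced by HIF. Egln1 stood at 8.11 ± 1.29 CPM in the negative and 6.82 ± 2.06 in the high gate, and Egln3 at 9.54 ± 3.51 and 8.91 ± 2.81.

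The other genes induced by hypoxia split, with Ndrg1 and Bnip3 lower, Bnip3l and Vegfa higher, and 9 of 10 tested. Ndrg1, a stress- and hypoxia-responsive gene linked to differentiation, had 43, 30, 46 and 46 counts in the negative libraries, 17, 13, 6 and 5 in the low ones, 1, 4, 1 and 0 in the medium ones, and 0, 1, 4 and 1 in the high ones. In CPM this was 6.31 ± 1.68 for negative, 1.51 ± 0.834 for low, 0.257 ± 0.282 for medium and 0.293 ± 0.253 for high (SD, n = 4). The low gate lay wholly below the negative gate and the medium gate wholly below the low gate. Where no read was counted, counting error alone leaves room for 3 counts, which is 0.425 CPM in medium 4 and 0.499 in high 1. Ndrg1 log2 fold changes were -2.06 for low (SE 0.482, adjusted p = 0.00998), -4.53 for medium (SE 0.629, adjusted p = 7.11e-06) and -4.29 for high (SE 0.638, adjusted p = 9.54e-06). With so few counts the size of the last pair moved with 1 library, to -5.56 without medium 2 and to -5.17 without high 3, and the low call was lost without low 3 (adjusted p = 0.0532) or low 4 (0.0572). The step from low to medium was not called by edgeR (adjusted p = 0.114). That from low to high was at the threshold: edgeR did not call it (0.0532), DESeq2 did (0.0453), and 6 of 21 alternatives in all gave a call, with adjusted p from 0.0294 with no filter on low counts to 0.190.

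Bnip3 and Bnip3l encode related receptors that mark mitochondria for removal, and they moved in opposite directions. Bnip3 gave 14.9, 32.6, 11.8 and 16.8 CPM in negative and 11.5, 12.9, 8.47 and 10.0 in low libraries. It gave 10.6, 11.7, 10.2 and 7.22 CPM in medium and 15.1, 21.8, 12.9 and 11.6 in high libraries. The medium gate lay just below the negative one, and the log2 change was -0.94 (SE 0.258, adjusted p = 0.0197). Without negative 2 this value was -0.56 (adjusted p = 0.173), and without medium 4 the adjusted p was 0.0765. The low gate was called without the low-count filter (adjusted p = 0.00687) and with the replicate number as a block (0.0203), but not by edgeR as fitted. Bnip3l gave 72.6, 68.2, 70.3 and 69.3 CPM in the negative libraries and 107, 81.6, 74.7 and 73.0 in the low ones. It gave 92.7, 109, 96.1 and 81.0 CPM in the medium libraries and 89.5, 108, 90.2 and 105 in the high ones. Every library of the other 3 gates exceeded every negative library. The Bnip3l log2 fold changes were 0.26 for low (adjusted p = 0.323), 0.43 for medium (SE 0.124, adjusted p = 0.0227) and 0.48 for high (SE 0.124, adjusted p = 0.00666). The high call held under every alternative run, and the medium one was lost without negative 2 (0.0636), negative 4 (0.0545) or medium 2 (0.0618).

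Vegfa encodes the angiogenic growth factor. It gave 2.75, 2.08, 2.55 and 0.410 CPM in negative and 3.04, 4.24, 3.25 and 2.32 in low libraries. The medium libraries gave 1.57, 6.76, 3.63 and 2.97 CPM and the high ones 3.16, 7.59, 4.01 and 11.6. The high gate lay above the negative gate, and the log2 change was 1.76 (SE 0.492, adjusted p = 0.0131), and without high 4 it was 1.35 (adjusted p = 0.0736). P4ha1 encodes a collagen prolyl hydroxylase subunit. Its values were 14.3, 23.4, 17.8 and 18.1 CPM for negative, 19.9, 19.4, 20.6 and 17.8 for low, 14.4, 16.7, 18.3 and 19.1 for medium, and 13.5, 17.5, 9.40 and 11.0 for high. The high gate lay just below the low gate, and the log2 change was -0.61 (SE 0.191, adjusted p = 0.0494). That call was lost in 11 of 16 fits without 1 library, with an adjusted p up to 0.191 (without high 3), and was kept without negative 1, negative 2, medium 1, medium 2 or high 2. It was also lost with low 1 and medium 2 both left out (0.0685) and with only the 2 gates compared (0.0513). P4ha2, Ddit4, Ankrd37 and Mxi1 were not called, and Ddit4, an inhibitor of mTORC1, stood at 65.6 ± 14.0 CPM in the negative and 83.3 ± 14.8 in the high gate.

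The members were also unevenly spread over the libraries of a gate. Number 2 was the highest library for 17 of 37 members in negative (45.9%, beside 24.5% of all genes tested), 18 in low (48.6% beside 25.9%), 14 in medium (37.8% beside 34.4%) and 20 in high (54.1% beside 27.5%). In medium the share lay near that of all genes, and number 3 was the highest for 13 members. Number 2 was the lowest library for 7, 5, 10 and 8 members in these gates. The median member lay above its gate mean by 0.19, 0.10 and 0.15 on the log2 scale in negative 2, low 2 and high 2, and at -0.00035 in medium 2. In all 4 gates number 2 also had the highest sum of pluripotent or epiblast markers, 1077 CPM beside 626 to 894 in negative, 191 beside 102 to 130.2 in low, 90.2 beside 63.7 to 86.1 in medium and 90.8 beside 58.7 to 64.4 in high. The part of those markers in the members' levels was not tested.

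Isozymes can replace each other without a change in the pathway as a whole, so 5 pairs were compared between the high and the negative gate as log2 ratios of counts within a library. Reads at 3′ ends do not give molar ratios, so only the shift between gates is read. The ratio of Aldoc to Aldoa was -7.19 ± 0.304 for negative, -6.49 ± 0.283 for low, -6.40 ± 0.283 for medium and -6.30 ± 0.118 for high (SD, n = 4). It shifted by 0.89 towards the brain-type isozyme Aldoc between negative and high (exact two-sided permutation p = 0.0286, adjusted p = 0.0714 over 5 pairs). Pfkp to Pfkl shifted by -1.95, from -4.50 ± 0.423 to -6.45 ± 1.14 (exact permutation p = 0.0286, adjusted p = 0.0714). In high 2 its ratio was -8.02, from 3 counts of Pfkp. Both pairs had no overlap between the 2 gates, and 0.0286 is the smallest p that 4 against 4 libraries can give. With only these 2 of the 5 pairs at that value, no pair passed after adjustment. Hk2 to Hk1 shifted by -0.50 and Ldhb to Ldha by 0.51 (exact permutation p = 0.143, adjusted p = 0.179 for each). Eno2 to Eno1 shifted by 0.18 (exact permutation p = 0.743), and the few counts of the neuronal enolase Eno2 gave an SD of 1.35 in the negative gate. Members of these pairs were also tested singly above, so the shifts are not separate evidence.

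**Figure D4:**
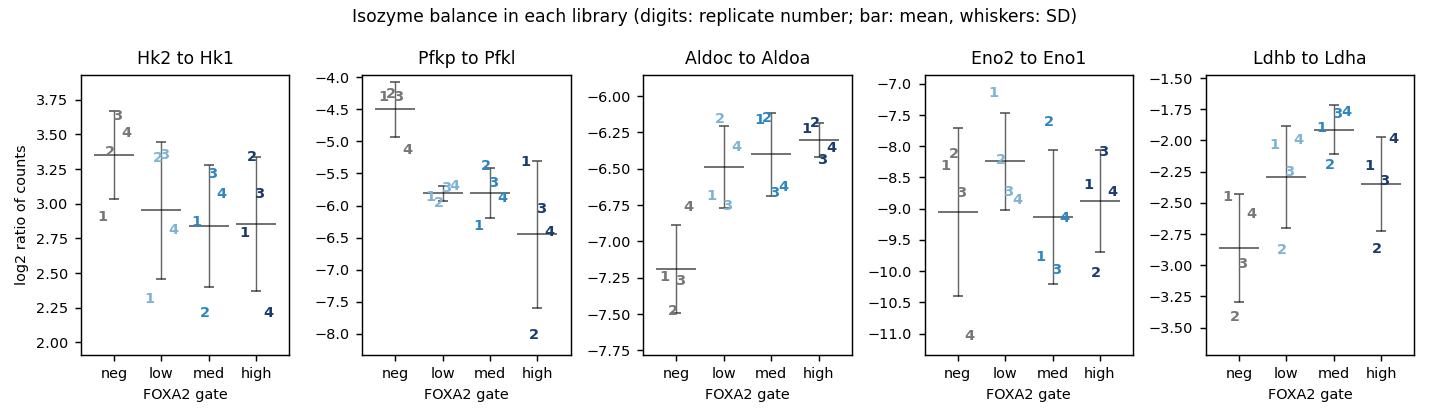
Log2 ratio of counts of 5 isozyme pairs (vertical axes, each on its own range) in each library by FOXA2 gate (horizontal axes), with replicate numbers as digits, means as bars and SD as whiskers. Aldoc to Aldoa is higher and Pfkp to Pfkl lower in all 4 high than in all 4 negative libraries, while the gates of the other 3 pairs overlap.

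Genes around the members were read from 6 further lists. Of 15 tested HIF factors and regulators, 4 were called higher in the high gate against the negative gate (8.42% of all genes tested were) and 0 lower (8.55%). At an unadjusted p under 0.05 there was 1 lower, and DESeq2 called 3 higher and 0 lower. The overall test called 1 of the 15, Epas1 (6.67% beside 13.7% of all genes tested). The 4 called higher in the high gate were Hif1a, Hif3a, Vhl and Cited2, and DESeq2 did not call Hif1a. Hif1a, the oxygen-regulated subunit found in most cells, rose from 71.7 ± 19.9 to 98.5 ± 8.19 CPM (log2 fold change 0.46, SE 0.161, adjusted p = 0.0498). Epas1 encodes HIF-2 alpha and was the only gene of this list called in the low and medium gates. It stood at 4.46 ± 0.228, 0.823 ± 0.933, 0.995 ± 0.394 and 1.77 ± 0.927 CPM from the negative to the high gate. Its log2 fold change was -2.48 for low (SE 0.548, adjusted p = 0.00566), -2.14 for medium (SE 0.539, adjusted p = 0.00922) and -1.25 for high (adjusted p = 0.0943). The mRNA of a HIF subunit does not measure its protein, which oxygen controls by breakdown.

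Of 33 tested hypoxia-induced genes outside the members, edgeR called 0 in the low gate (7 at an unadjusted p under 0.05, and 0 with DESeq2), 1 higher and 4 lower in the medium gate, and 2 higher and 6 lower in the high gate. Over all genes tested, 1.47% were called higher and 2.29% lower in low, 4.24% and 4.22% in medium, and 8.42% and 8.55% in high. Rora, a nuclear receptor, rose from 11.2 ± 2.64 to 23.8 ± 3.89 CPM in high (log2 change 1.08, SE 0.208, adjusted p = 0.000338). Car12, a membrane carbonic anhydrase, fell from 20.8 ± 4.97 to 10.3 ± 1.85 CPM (log2 fold change -1.01, SE 0.222, adjusted p = 0.00154). Hmox1, the haem-degrading enzyme, fell from 11.5 ± 1.88 to 5.68 ± 1.60 CPM (adjusted p = 0.00341). Rbpj, the DNA-binding factor of Notch signalling, fell from 35.1 ± 2.37 to 21.7 ± 2.77 (log2 fold change -0.68, SE 0.142, adjusted p = 0.000868). The list's median log2 fold change in the high gate was -0.09, with 13 genes above 0 and 20 below. The count of genes called higher, 2 of 33, did not exceed the share over all genes.

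Of 18 tested isozymes and regulators of glycolysis outside the members, 4 were called higher and 3 lower in the high gate, beside 8.42% and 8.55% of all genes. Hkdc1, a hexokinase-like gene, stood at 0.837 ± 0.749 CPM in negative libraries and rose to 5.23 ± 2.08, 8.73 ± 1.94 and 13.4 ± 7.64 in low, medium and high. Its log2 fold changes were 2.66, 3.38 and 3.98 (adjusted p = 0.00305, 7.96e-05 and 4.24e-06). Eno3, the muscle-type enolase, rose from 56.7 ± 7.67 to 101 ± 5.57 CPM in high (log2 change 0.83, SE 0.124, adjusted p = 1.07e-05). Tigar, a phosphatase that lowers fructose 2,6-bisphosphate, fell from 16.8 ± 2.99 to 9.45 ± 1.12, 8.76 ± 1.34 and 8.14 ± 1.64 CPM. Its log2 fold changes were -0.82, -0.94 and -1.03 (adjusted p = 0.0135, 0.00229 and 0.000602). Gpd2, the mitochondrial glycerol phosphate dehydrogenase, fell from 85.7 ± 8.95 to 53.7 ± 4.13 CPM in high (log2 change -0.67, SE 0.133, adjusted p = 0.000474).

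Of 11 tested genes of pyruvate dehydrogenase, its other kinases and the pyruvate carriers, edgeR called 0 in any comparison, as did DESeq2, and the only ones at an unadjusted p under 0.05 were 2 in medium versus negative. Of 20 tested genes of the tricarboxylic acid cycle, the overall test called 3 (15.0% beside 13.7% of all genes). In the high gate 1 was called higher and 1 lower, beside 8.42% and 8.55% of all genes. They were Aco1, the cytosolic aconitase that also senses iron, which rose from 36.1 ± 3.60 to 52.9 ± 1.89 CPM (log2 fold change 0.55, adjusted p = 0.00321), and Ogdh, a subunit of oxoglutarate dehydrogenase, which fell from 94.6 ± 6.37 to 65.0 ± 6.81 (log2 fold change -0.54, adjusted p = 0.0015). Idh2, the mitochondrial isocitrate dehydrogenase, was called higher in the low and medium gates, at 176 ± 8.95, 234 ± 24.0, 231 ± 26.8 and 204 ± 9.55 CPM over the 4 gates. Of 10 tested genes of the pentose phosphate pathway, 1 was called higher and 1 lower in the high gate (8.42% and 8.55% of all genes). In high versus low 2 were called higher and 1 lower (3.79% and 3.08%), and the overall test called 3 (30.0% beside 13.7%). Taldo1, the transaldolase, rose from 428 ± 28.1 to 561 ± 49.5 CPM (log2 fold change 0.39, adjusted p = 0.00414). Prps1, which makes phosphoribosyl pyrophosphate, fell from 25.1 ± 3.02 to 12.4 ± 2.90 CPM (log2 fold change -1.03, adjusted p = 8.31e-05). G6pdx, the entry enzyme of the pathway, was called higher in high versus low, at 107 ± 11.9 beside 76.8 ± 7.18 CPM (log2 fold change 0.48, adjusted p = 0.0147).

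Among the 22 members that passed no test, log2 fold changes against the negative gate ran from -0.41 (Pgk1, low gate) to 0.68 (Hk1, high gate). They were Slc2a1, Hk1, Gpi1, Pfkl, Pfkm, Aldoc, Tpi1, Gapdh, Pgk1, Eno1, Eno2, Pkm, Ldhb, Pdk3, Pfkfb3, Pfkfb4, Egln1, Egln3, Ankrd37, P4ha2, Ddit4 and Mxi1. The smallest adjusted p among them in these 3 comparisons was 0.0566, for Hk1. A p that misses the threshold does not show equal levels in the gates. By range alone, the members whose libraries lay wholly apart from the negative ones were 1 higher and 6 lower in low, beside 4.04% and 5.6% of all genes tested. They were 2 higher and 10 lower in medium, beside 6.13% and 6.75%, and 3 higher and 7 lower in high, beside 10.5% and 11.1%. High versus low had 3 higher and 3 lower, beside 6.92% and 5.95%. Medium versus low had 0 higher and 2 lower (Slc2a1 and Ndrg1), beside 2.09% and 1.99%, and high versus medium had 1 higher (Pdk1) and 0 lower, beside 2.93% and 2.44%. Pfkl in the medium gate and Pdk3 in the high gate were lower than negative by this measure without being called.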

How the data were processed

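RNA was measured by BRB-seq, a bulk 3′ method with early barcoding. The authors deposited 1 table of raw counts for 35976 genes in 16 columns, 4 libraries for each of 4 gates. Cutadapt 1.18, STARsolo 2.7.9a, DESeq2 1.42.0 and GRCm38 are named in the submitters' processing notes, with no parameters. Neither the annotation, the strand setting nor the use of molecular identifiers is given in the sources used here, so an antisense gene could share reads with a member. Columns were matched to samples by name.

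From the counts, edgeR 4.0.16 in R 4.3.3 kept 13891 genes by its expression filter, scaled libraries by TMM (factors 0.97 to 1.05) and fitted a robust quasi-likelihood model of the 4 gates to all 16 libraries. The 6 pairwise differences and the test of any difference were adjusted by Benjamini-Hochberg over all genes tested, at a threshold of 0.05. Levels are CPM over the scaled library size, with SD over 4 libraries. Each standard error (SE) is the log2 change over the root of its F statistic. Isozyme ratios added 0.5 to each count and were tested by exact permutation of 4 against 4 libraries. No pair of libraries within a gate was a duplicate (smallest chi-square per degree of freedom 4.25 over 24 pairs). The steps were tested on simulated data. They recovered 72 of 100 changes of 2-fold in low versus negative and 68 of 100 in high versus negative. Of changes of 4-fold they recovered 92 and 85 of 100. False calls were 4 and 11 among 13691 unchanged genes. Smaller changes were not simulated. Coordinates and promoters are from RefSeq (GRCm38.p6), and copies were sought with blastn 2.17.0 among GENCODE M21 transcripts, over the last 500 bases.

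The members, the lists and the tests were chosen with earlier results of these data known. Every member called in any test was given by library, the rest by range, and of each further list at most 4 called genes with the smallest p in the overall test were named. Hif1a, Hif3a, Vhl and Cited2 were named beyond this rule after their values were seen. The settings also tried were DESeq2, RLE scaling, no low-count filter, the replicate number as a block, thinning to the smallest total, leaving out each library, low 1 and medium 2 together, only the 2 gates compared, and an offset of 1.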

Additional observations from a re-analysis of the deposited data

Results flagged for a closer look

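Within a gate of 4 libraries, the highest or lowest library was set against the other 3 for the 15 called members, by the ratio of its gap to the gate's whole range and Dixon's critical value. Of 60 groups, 5 passed, where chance gives about 1 in 20, or 3. Slc16a3 stood at 302 CPM in negative 2, with the next library at 172, and at 139 CPM in high 2, with the next at 97.4. Pdha1 stood at 76.9 CPM in high 2, with the next at 55.1. Slc16a1 stood at 30.6 CPM in low 1, with the next at 25.4, and Pgam1 at 24.7 CPM in low 1, with the next at 20.2.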

How the results depend on the processing

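Of 23 alternatives, calls held in all for Pfkp in the 3 gates against negative, Pdk1 in low and medium, Slc16a3 in medium and high, Slc2a3, Slc16a1 and Bnip3l in high, and Hk2 in high versus low, and in all 22 that gave a value for Ndrg1 in medium and high. No called change reversed under any of them. With DESeq2, 2 members were lower in high versus low. With no filter on low counts, 8 were lower in low versus negative, 1 in medium versus low and 2 in high versus low. With every library thinned to the smallest total, 5 were lower in medium versus negative, and 1 was higher of 2 called in high versus low. Without low 1 and medium 2 together, 3 were lower in low versus negative, 1 in high versus medium and 0 in high versus low, and 0 were lower in high versus low with only the 2 gates fitted. The cause of these shifts was not tested. The share of all genes called under each setting, or with a library left out, is not given here. No shift particular to the members can therefore be read from these counts. With RLE scaling, every count stayed within 1.5 times. Leaving out 1 library gave 2 to 8 members (all lower) in low versus negative, 5 to 11 in medium versus negative (1 to 2 higher, 4 to 9 lower), 7 to 12 in high versus negative (2 to 4 higher, 4 to 8 lower), 0 to 1 (higher) in medium versus low, 0 in high versus medium, 1 to 5 in high versus low (1 to 3 higher, 0 to 2 lower) and 7 to 13 in the overall test. The isozyme shifts ran from -0.66 to -0.29 for Hk2 to Hk1, -2.33 to -1.42 for Pfkp to Pfkl, 0.79 to 1.03 for Aldoc to Aldoa, -0.48 to 0.57 for Eno2 to Eno1 and 0.33 to 0.69 for Ldhb to Ldha.

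The replicate numbers were not shown to pair the libraries, and the main fit did not use them. Of 24 same-numbered pairs, 6 correlated above 0.1 in their deviations from the gate means (-0.07 to 0.19, median 0.03). The 72 other pairs had a median of -0.01. The best match in another gate carried the same number in 19 of 48 cases. For 0 libraries was this so in every other gate. These values do not settle whether the numbers pair the libraries. With the number as a block, 10 members were called lower in low versus negative, where Ldha had an adjusted p of 0.000412, and the isozyme test with this block cannot give a p under 0.125. The share of all genes called with this block is not given here, so the count does not show a change particular to the members. Depth limits Ndrg1, Vegfa, Eno2 and Adm, and also Pfkp in the high gate, where 3 counts were worth up to 0.913 CPM.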
